A study of Mus musculus with 5 samples.

Results

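Mature osteoblasts were taken here as the cells with a high level of osteocalcin, the small vitamin K-dependent protein that osteoblasts lay down in bone. They were chosen by 1 rule in every library. A cell needed at least 500 detected genes, at least 1000 UMIs (unique molecular identifiers, 1 per captured RNA molecule), a mitochondrial share of UMIs under 25%, no UMI of the leukocyte gene Ptprc, and at least 20 UMIs of the osteocalcin genes Bglap and Bglap2 together per 10000 UMIs. The rule found 730 cells, called osteocalcin cells below, among 57968 deposited cells, of which 47829 passed the quality limits and 41676 of those had no Ptprc UMI.

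The study sequenced single cells sorted as tdTomato-positive from mouse femur marrow, with the ends of the bones taken off, by BD Rhapsody, with about 30000 cells loaded per library. All 5 libraries came from mice of the genotype Lepr-cre; R26R-tdTomato, in which the leptin receptor gene drives Cre, so that cells with a history of Lepr expression carry the tdTomato label. The aged-injury library came from mice of 18 months, 1 week after an ablation of the marrow, and the aged library from uninjured mice of 18 months. The exhausted library came from mice of 15 weeks ablated at 9 and again at 13 weeks, the naive library from mice of 15 weeks ablated at 13 weeks only, and the control library from uninjured mice of 15 weeks. Each group was 1 library, the number of mice behind it is not given in the sources used here, and no difference between groups can be set against the spread between animals. Intervals below are 95% intervals that cover counting error only, and batch and group cannot be told apart.

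Osteoblasts build bone by secreting type I collagen, which assembles into fibrils, is crosslinked outside the cell and then mineralises. Osteocalcin is made late in that programme, after alkaline phosphatase (Alpl) and bone sialoprotein (Ibsp), and some osteoblasts go on to become osteocytes buried in the matrix. In marrow, cells that express Lepr and the chemokine gene Cxcl12 surround the vessels, and some of their descendants become osteoblasts. Ablation of the marrow is followed by new bone that fills the cavity for a time.

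The marker genes of these cells are Bglap, Bglap2, Ibsp, Col1a1 and Ifitm5. Of these 5, 3 had a promoter entry in RefSeq (GRCm38.p6, an older build than the GRCm39 named for these files), each running from 250 bases before the gene start to 50 after it. They are shown because Bglap chose the cells, Ifitm5 followed it and Ibsp did not (both below). Capitals mark the core letters ACCACA bound by Runx factors, transcription factors that osteoblasts need, wherever they occur on either strand.
Bglap: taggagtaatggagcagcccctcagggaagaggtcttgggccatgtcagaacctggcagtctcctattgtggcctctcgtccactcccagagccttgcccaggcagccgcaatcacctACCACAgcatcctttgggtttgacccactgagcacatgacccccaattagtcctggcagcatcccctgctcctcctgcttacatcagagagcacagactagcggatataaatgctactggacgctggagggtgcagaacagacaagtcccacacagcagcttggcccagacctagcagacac
Ibsp: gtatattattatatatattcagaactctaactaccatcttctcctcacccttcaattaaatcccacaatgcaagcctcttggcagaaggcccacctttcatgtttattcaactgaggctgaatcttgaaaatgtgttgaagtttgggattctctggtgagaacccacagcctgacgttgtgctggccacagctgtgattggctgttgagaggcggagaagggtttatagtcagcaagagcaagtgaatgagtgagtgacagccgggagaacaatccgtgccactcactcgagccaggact
Ifitm5: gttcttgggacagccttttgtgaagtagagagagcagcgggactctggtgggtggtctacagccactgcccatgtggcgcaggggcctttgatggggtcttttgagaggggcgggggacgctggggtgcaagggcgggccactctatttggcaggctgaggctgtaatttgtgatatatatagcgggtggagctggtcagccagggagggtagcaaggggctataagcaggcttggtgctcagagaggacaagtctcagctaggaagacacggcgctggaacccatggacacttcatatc
The Bglap window lies at chr3:88384417-88384716 on the minus strand and holds the core once, with its first base at position -132 from the gene start. The Ibsp window at chr5:104299037-104299336 on the plus strand and the Ifitm5 window at chr7:140950194-140950493 on the minus strand hold neither ACCACA nor its reverse complement TGTGGT. Those letters occur in 16.8% of the 32851 promoter windows in the table, so a match is a description and not a site.

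Bglap, Bglap2 and the related Bglap3 lie side by side on the minus strand of chromosome 3. In the reference transcripts, 74.7% of all 50-base windows of Bglap occurred letter for letter in Bglap2, against 20.5% in Bglap3, so the split of reads between Bglap and Bglap2 is uncertain and their sum is used. Bglap took 59.1% of the summed UMIs in the aged-injury cells, 55.6% in aged, 57.7% in exhausted, 60.5% in naive and 55.8% in control. At least 1 UMI of each gene was found in 564 of 567, 41 of 42, 33 of 34, 34 of 34 and 52 of 53 cells, in the same order.

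**Figure D1:**
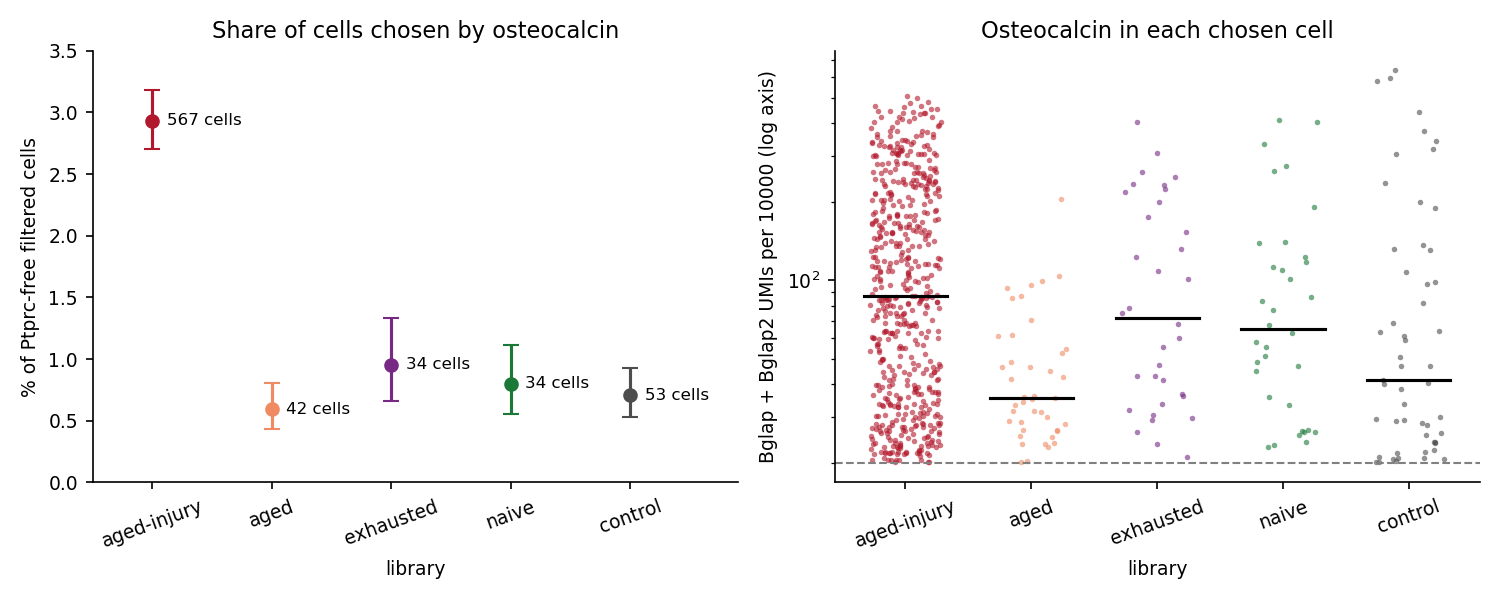
Left: share of the filtered Ptprc-free cells that passed the osteocalcin rule in each library, in percent, with exact Clopper-Pearson 95% intervals. Right: Bglap and Bglap2 UMIs per 10000 in each chosen cell on a log axis, with the dashed line at the minimum of 20; the aged-injury share of 2.93% stands above the other 4, which lie between 0.595% and 0.956%.

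The rule chose 567 cells in the aged-injury library, 42 in aged, 34 in exhausted, 34 in naive and 53 in control. As a share of the filtered Ptprc-free cells this was 2.93% in aged-injury (exact Clopper-Pearson interval 2.70 to 3.18), 0.595% in aged (0.430 to 0.804), 0.956% in exhausted (0.663 to 1.33), 0.801% in naive (0.555 to 1.12) and 0.707% in control (0.530 to 0.924). The aged-injury library thus held 77.7% of all osteocalcin cells, and pooled statements about them are mostly statements about that library. These shares are what the rule selected and carry no test. Leukocytes, which should lack osteocalcin, passed the same limit in 0 of 171 Ptprc-positive cells of aged-injury, 1 of 507 of aged, 1 of 2720 of exhausted, 0 of 995 of naive and 1 of 1760 of control. Below the limit, stray osteocalcin UMIs were most widespread in aged-injury. At least 1 was found in 22.8% of its Ptprc-positive cells, against 1.58%, 3.125%, 5.83% and 5.97% in aged, exhausted, naive and control. The Ptprc-free cells that were not chosen had at least 1 in 20.7%, 4.44%, 6.53%, 9.68% and 7.37%, with aged-injury first. Where these UMIs come from was not tested. A share of cells cannot tell more osteoblasts from a change in how many were released from bone and sorted.

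Within the chosen cells osteocalcin was not uniform. Its median was 87.2 UMIs per 10000 in aged-injury, 35.3 in aged, 71.6 in exhausted, 65.0 in naive and 41.4 in control, and the highest cell of each library had 507, 204, 403, 413 and 638. The limit fell in a continuous range: the nearest cell inside it had 20.06 UMIs per 10000 in aged-injury, 20.23 in aged, 21.12 in exhausted, 23.01 in naive and 20.16 in control. The nearest cell outside had 19.88, 19.84, 19.34, 17.44 and 19.94. Between 10 and 20 UMIs per 10000 lay 213, 52, 24, 21 and 42 further cells, so the limit cut through a range of osteocalcin level. Cells at 20 to 50, 50 to 100, 100 to 200 and at least 200 numbered 190, 110, 117 and 150 in aged-injury. In aged they numbered 30, 10, 1 and 1, and in exhausted 14, 5, 7 and 8. In naive they numbered 13, 8, 8 and 5, and in control 29, 9, 5 and 10. Whether the highest cells form a separate class was not tested.

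The chosen cells also differed in depth. Their median UMI count was 19715 in aged-injury, 7270 in aged, 5712.5 in exhausted, 9067 in naive and 7309 in control, while the other Ptprc-free cells had 9327, 6547, 6580, 7149 and 8207. Only the aged-injury cells were more than 2 times as deep as the rest of their library (ratio 2.11). Summed over cells they gave 11730184, 374837, 341377, 469615 and 582898 UMIs. Their median mitochondrial share was 7.90%, 12.3%, 7.02%, 10.7% and 10.1%, against 5.71%, 7.47%, 7.25%, 8.12% and 6.31% in the other cells. No doublet caller was run, and the part of doublets in the results was not tested. Of 57947 cell barcode numbers 21 occurred in more than 1 library, and 0 osteocalcin cells carried one of them.

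Type I collagen dominated the RNA of these cells. Col1a1, the gene of its alpha 1 chain, made up 15.1% of all UMIs of the osteocalcin cells in aged-injury, 8.33% in aged, 10.9% in exhausted, 16.0% in naive and 9.29% in control. Together with Col1a2, the alpha 2 chain, Sparc, a matrix protein that binds collagen and calcium, and osteocalcin itself, 4 products held 31.4%, 16.6%, 21.9%, 31.7% and 19.99% of UMIs. The aged-injury and naive libraries, both from mice ablated once, were the 2 highest in each of these sums. CPM values below are depth-normalised counts, the UMIs of a gene scaled to the same total of UMIs in every set of cells.

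The markers did not all separate the cells equally. Another 2 sets of Ptprc-free cells served for comparison: 5816 cells under the osteocalcin limit with at least 5 Alpl UMIs per 10000, called Alpl cells, and 27786 reticular cells with a Lepr UMI and at least 100 Cxcl12 UMIs per 10000. Ifitm5, a membrane protein of mineralising osteoblasts, stood at 207 CPM in the osteocalcin cells of aged-injury, 144 in aged, 290 in exhausted, 287 in naive and 225 in control, against 24.95, 11.6, 13.1, 12.8 and 18.5 in the Alpl cells. Bglap3, the osteocalcin relative that the rule did not use, stood at 34.1, 29.4, 26.4, 27.7 and 49.8 CPM, against 0.593, 0, 0.373, 0.252 and 1.17 in the Alpl cells, though it shares sequence with the genes that chose the cells. For both genes the lowest library of osteocalcin cells was above the highest library of Alpl cells. Ibsp stood at 5247, 6840, 5443, 4744 and 4728 CPM in the osteocalcin cells, against 6843, 5521, 3554, 3809 and 5643 in the Alpl cells and 1780, 4998, 2700, 2463 and 4557 in reticular cells. The values of the 3 sets overlapped in range, so by level Ibsp did not set the osteocalcin cells apart.

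**Figure D2:**
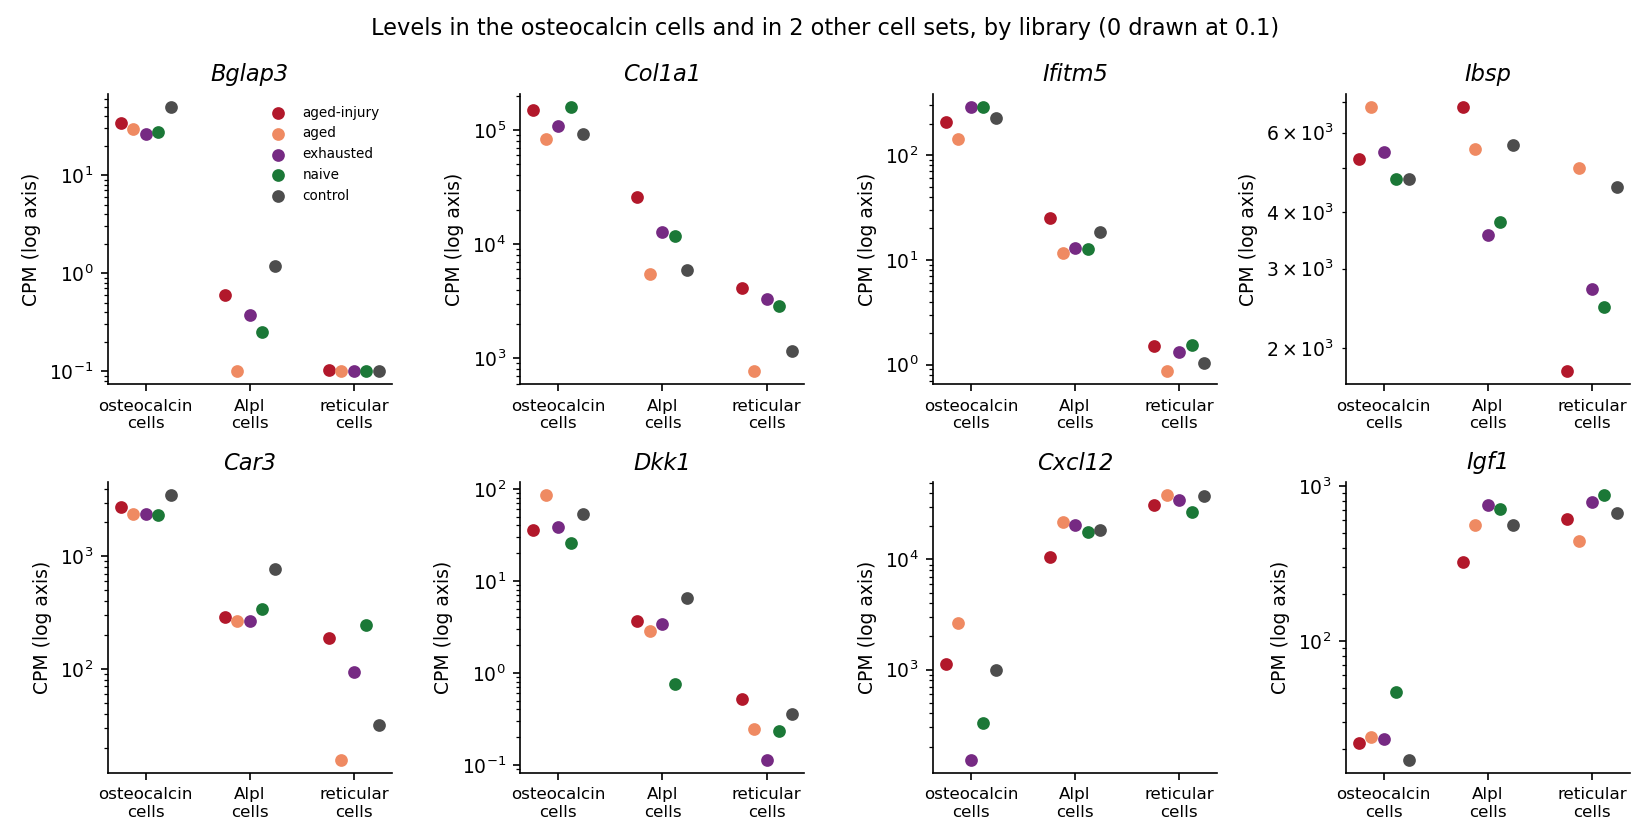
Levels of marker genes in CPM on a log axis, for the osteocalcin cells, the Alpl cells and the reticular cells, with 1 point per library and 0 drawn at 0.1. Ifitm5 in the osteocalcin cells (144 to 290 CPM) lies above both other sets in every library, while Ibsp overlaps between the sets.

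Genes of other cell types were counted over fixed marker lists. The preosteoblast list, with Spp1 as its highest gene, summed to 5355 CPM in the osteocalcin cells of aged-injury, 17997 in aged, 10557 in exhausted, 6542 in naive and 12349 in control. It summed to 21567, 14776, 12577, 13579 and 18974 CPM in the Alpl cells, which were chosen by a gene of that list. In aged the osteocalcin cells were thus the higher set. All 5 genes of the T and NK cell list had no UMI in the osteocalcin cells of every library, and the endothelial list summed to 5.86 to 24.0 CPM. The reticular list, with Cxcl12 as its highest gene in 4 libraries, summed to 2074 CPM in aged-injury, 5205 in aged, 750 in exhausted, 822 in naive and 2843 in control, and results are given without Cxcl12-rich cells where that ends a difference. The erythroid list summed to 545, 363, 12792, 349 and 2011 CPM, and in exhausted 1 cell gave 94.9% of the Hba-a1 UMIs. Of the 5 osteocyte markers, Dmp1 led the sum in 4 libraries, and the sclerostin gene Sost had 48 UMIs from 4 cells in aged-injury, 0 in exhausted and naive, and was not listed in aged and control.

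To ask which genes went with osteocalcin in every library, the UMIs of the osteocalcin cells and of the Alpl cells were summed per library and compared with edgeR's quasi-likelihood test, with the library as a block (5 pairs). Of 11981 genes tested, 1398 were higher in the osteocalcin cells (11.7%) and 1816 lower (15.2%) at an adjusted p under 0.05. The Alpl cells held many reticular-type cells, with Cxcl12 at 10530 to 22006 CPM, and those of aged-injury held chondrocyte markers at 11276 CPM, against 387 to 806 in the other libraries. The test was therefore repeated without cells of at least 20 Cxcl12 UMIs per 10000 on either side. Of 8341 genes, 757 were then higher (9.08%) and 778 lower (9.33%). Of the earlier calls, 1348 were made again with the same sign, and 73 had an estimate of the opposite sign, called or not. A gene correlated with osteocalcin in single cells is picked up by the choice itself, so the test asks whether a difference recurs across libraries, not whether the 2 sets are separate types. The p-values measure the spread between 5 libraries of different groups.

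The scale of that comparison needs 1 caution. The TMM factors of edgeR were 0.755 to 0.992 for the osteocalcin cells and 1.11 to 1.16 for the Alpl cells. They thus raised every gene of the osteocalcin cells relative to the Alpl cells, and why they differ was not tested. Without the factors, on the CPM scale, the median of all genes tested moved to -0.41 log2. The split became 636 higher and 3646 lower. Of the earlier calls 2451 were made again with the same sign and 0 genes turned round, but for lists with a median near 0 the balance changed, and the CPM-scale counts are given for those. This scale was added after the data had been seen.

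The largest called increases were in collagens of fibril cores and in secreted or membrane proteins. Col11a2, a chain of the type XI collagen that nucleates fibrils, stood at 3223 CPM in the aged-injury osteocalcin cells, 1838 in aged, 2302 in exhausted, 3993 in naive and 2062 in control, against 481, 25.7, 34.3, 55.1 and 37.2 in the Alpl cells. The groups of values did not overlap, and the log2 fold change was 5.80 (SE 0.72, edgeR adjusted p = 0.0056, higher in 5 of 5 libraries). Its partner chain Col11a1 rose by 4.26 (SE 0.52, adjusted p = 0.0040). Prss35, of the trypsin-like protease family, had the largest called log2 fold change, 6.73 (SE 0.71, adjusted p = 0.0029), with 394 ± 247 CPM in the osteocalcin cells and 6.98 ± 10.2 in the Alpl cells (SD, n = 5).

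Lipc, hepatic lipase, had the smallest p-value of the 12 named increases, at 163 ± 21.8 CPM in the osteocalcin cells and 5.25 ± 2.23 in the Alpl cells (SD, n = 5; log2 5.28, edgeR adjusted p = 7.8e-13). Slc13a5, a citrate importer of osteoblasts, rose by 5.63 log2 (SE 0.59, edgeR adjusted p = 0.0018). Cpz, a carboxypeptidase with a Wnt-binding domain, rose by 5.997, the nucleotide-cleaving surface enzyme Entpd3 by 5.595, the sodium-proton exchanger Slc9a2 by 5.21 and the potassium channel Kcnk1 by 4.31. Mamdc2, Cthrc1, a secreted protein linked to collagen turnover, and Cgref1 completed the 12 named increases at 4.48, 4.33 and 4.23 log2.

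Of the 8 named decreases, Igf1, a growth factor, stood at 21.8, 24.0, 23.4, 46.9 and 17.2 CPM in the osteocalcin cells of aged-injury, aged, exhausted, naive and control, against 322, 556, 750, 713 and 559 in the Alpl cells. It fell by 3.93 log2 (SE 0.22, edgeR adjusted p = 5.1e-09) and by 2.18 without the Cxcl12 cells (adjusted p = 1.1e-05). Igfbp4, which binds IGFs, fell by 4.29, Mgp, an inhibitor of mineralisation, by 4.52, the gelatinase Mmp9 by 4.19 and the complement gene C6 by 3.94. The cartilage collagen gene Col9a2 had a log2 change of -6.503. Cxcl12 itself fell by 4.19 (adjusted p = 0.027), and Adipoq, adiponectin, by 4.29 (adjusted p = 0.021), but without the Cxcl12 cells Adipoq changed by -0.23 (adjusted p = 0.56). The adjusted p of Cxcl12 was 0.051 without aged, 0.090 without naive and 0.093 without control, and that of Adipoq 0.053 without naive and 0.082 without control.

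**Figure D3:**
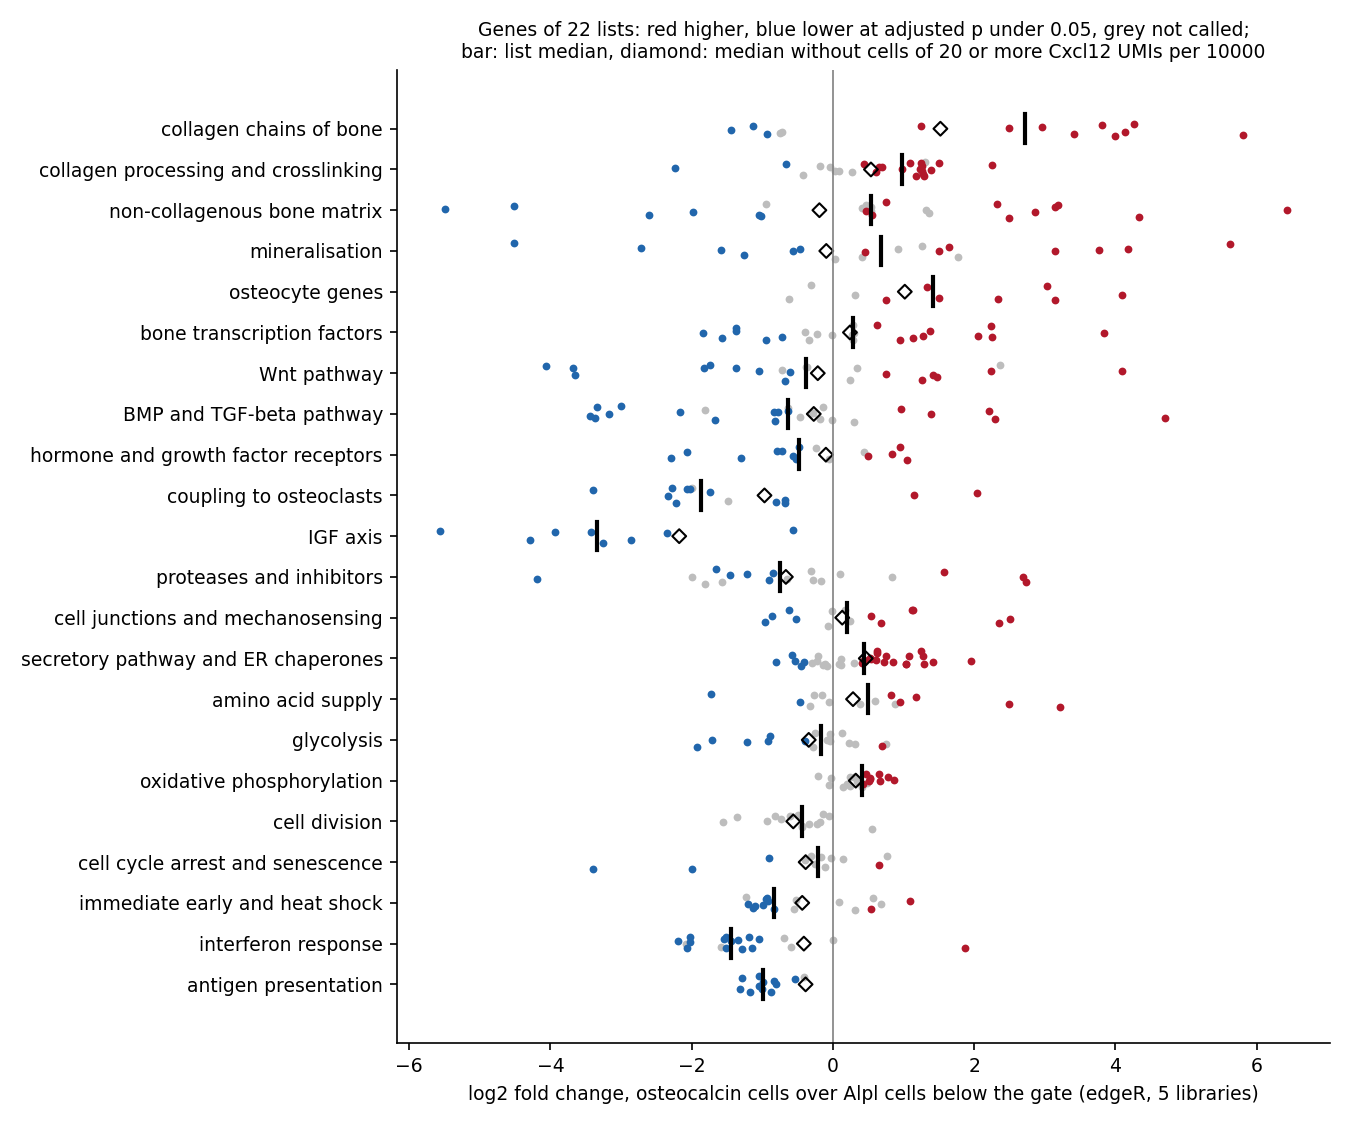
Each point is a gene of 1 of 22 lists, placed by its log2 fold change of osteocalcin cells over Alpl cells (edgeR, 5 libraries), red where called higher, blue where called lower and grey where not called. Bars mark list medians and diamonds the medians without the Cxcl12-rich cells; the bone collagen chains have a median of 2.72 and the IGF axis one of -3.34.

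Of 14 collagen chains of bone, 9 rose and 3 fell, with a median log2 change of 2.72 against -0.02 over all genes tested. The fibril chains Col1a1, Col1a2, Col5a1, Col5a2, Col11a1 and Col11a2 rose, as did Col24a1, Col22a1 and Col13a1. Col1a1 rose by 3.81 (SE 0.20, edgeR adjusted p = 1.8e-09). Col22a1 had nearly the same level in every library, 372, 366, 258, 339 and 336 CPM, against 45.2, 21.4, 12.9, 31.7 and 29.6 in the Alpl cells. Col6a1, Col6a2 and Col12a1, chains of the microfibrils and of fibril surfaces, fell by 1.44, 1.13 and 0.93 on the log2 scale, and Col12a1 had an adjusted p of 0.13 without naive and 0.081 without exhausted. Without the Cxcl12 cells 9 rose and 4 fell, and the median was 1.52.

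The enzymes that fold and crosslink collagen moved with it. Of 25, 16 rose and 2 fell (median 0.98), and without the Cxcl12 cells 13 of 24 rose and 1 fell (median 0.54). Creb3l1, the transcription factor that drives collagen secretion, rose by 2.25 (edgeR adjusted p = 4.3e-10), the collagen crosslinker Lox by 1.39, the prolyl hydroxylase subunit P4ha2 by 1.498 and the collagen chaperone Serpinh1 by 1.23. Serpinh1 stood at 3958, 2092, 3172, 3509 and 3419 CPM, against 2077, 1289, 1718, 1663 and 1940 in the Alpl cells. Loxl1, an elastin crosslinker, fell by 2.23 (adjusted p = 2.6e-05).

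The other matrix genes split. Of 23 tested, 10 rose and 6 fell, and without the Cxcl12 cells 8 of 21 rose and 3 fell. Sparc rose by 2.87, Serpinf1, the secreted factor whose loss causes brittle bone, by 3.19, and the small proteoglycan genes Dcn and Lum by 2.49 and 2.32. Bgn, a related proteoglycan, rose by 0.55 (edgeR adjusted p = 0.0048), a call not made on the CPM scale. Ibsp was called higher by 0.47 (adjusted p = 0.020), yet it was lower in the osteocalcin cells of 2 libraries, had a log2 change of 0.12 on the CPM scale and of -0.26 without the Cxcl12 cells (adjusted p = 0.29). Its adjusted p was 0.13 without the aged library, 0.10 without exhausted and 0.074 without naive. Osteopontin, Spp1, showed 0.53 (SE 0.63, adjusted p = 0.64).

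Among mineralisation genes 7 of 18 rose and 6 fell. Those that rose included Ifitm5 (4.18, edgeR adjusted p = 2.3e-09), the sphingomyelinase Smpd3 (3.77) and Phex (1.501), the endopeptidase of phosphate control that is mutated in X-linked hypophosphataemia. The phosphate transporter gene Slc20a2 fell by 2.72. Phospho1, a phosphatase of matrix vesicles, had 0 UMIs in the osteocalcin cells of aged-injury, exhausted and control and was not listed in aged and naive.

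Of 10 osteocyte genes tested, 7 rose and 0 fell (5 and 1 of 9 without the Cxcl12 cells). The Wnt inhibitor Dkk1 rose by 4.09 (edgeR adjusted p = 7.6e-09), podoplanin, Pdpn, by 3.03 and the phosphatase receptor Ptprz1 by 2.33. Dmp1, a matrix protein of young osteocytes, stood at 516 CPM in aged-injury, 1091 in aged, 1131 in exhausted, 119 in naive and 1343 in control, against 143, 128, 42.3, 80.5 and 116 in the Alpl cells. It rose by 3.15 (adjusted p = 0.032), but its adjusted p was 0.074 without aged-injury, 0.11 without aged, 0.11 without control and 0.20 without the Cxcl12 cells.

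Transcription factors of bone gave 9 increases and 6 decreases of 23. Sp7, required for osteoblasts to form, rose by 1.27 (edgeR adjusted p = 4.0e-05), with 311, 243, 319, 379 and 275 CPM against 158, 181, 136, 144 and 191 in the Alpl cells. The homeobox gene Dlx3 rose by 3.84, the Wnt effector Tcf7 by 2.23 and Mef2c, a muscle and bone factor, by 2.06. Runx2, which starts the lineage, showed 0.27 (adjusted p = 0.18), and Twist2, a brake on osteoblast formation, fell by 1.84. On the CPM scale the count was 7 up and 7 down. Without the Cxcl12 cells it was 7 up and 2 down of 20, and Twist2 was not among the called decreases.

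Signalling genes changed in both directions. Of 21 Wnt genes 6 rose and 9 fell (3 and 12 on the CPM scale, 4 and 5 of 16 without the Cxcl12 cells). The inhibitors Sfrp1 and Wif1 fell by 3.69 and 1.05, but the inhibitors Dkk1 and Notum rose, Dkk1 by 4.09. Notum was not called on the CPM scale, and its edgeR adjusted p was 0.080 without aged, 0.084 without control and 0.099 without naive. The co-receptor gene Lrp5 rose by 1.26, and the co-receptor gene Lrp6 fell. Neither Notum nor Lrp6 was among the calls made without the Cxcl12 cells. Of 25 BMP and TGF-beta genes 5 rose and 11 fell (5 and 18 on the CPM scale, 3 and 5 of 23 without the Cxcl12 cells). Bmp3, an inhibitor of bone growth in mice, rose by 2.30 and Bambi, a decoy receptor, by 2.22, while the BMP antagonists Nog and Chrdl1 fell by 3.44 and 3.34. Among 15 receptors 4 rose and 8 fell (2 and 10 on the CPM scale, 3 and 4 without the Cxcl12 cells). Pth1r, the parathyroid hormone receptor, rose by 0.83 and Fgfr1 by 1.05, and Lepr and Pdgfrb fell by 2.30 and 2.07. Without the Cxcl12 cells Pth1r and Lepr were not called (edgeR adjusted p = 0.26 and 0.057).

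Genes that couple bone formation to osteoclasts were mostly lower. Of 14, 2 rose and 10 fell (median -1.87; 0 and 6 of 9 without the Cxcl12 cells). Tnfsf11, the osteoclast-forming ligand RANKL, stood at 28.3, 171, 35.2, 12.8 and 56.6 CPM in the osteocalcin cells, against 268, 261, 349, 375 and 267 in the Alpl cells, and fell by 2.28 (edgeR adjusted p = 0.044; 0.12 without aged-injury, 0.11 without exhausted, 0.090 without naive and 0.12 without control). Its decoy receptor Tnfrsf11b, osteoprotegerin, rose by 2.04 (adjusted p = 0.0023), a call not made without the Cxcl12 cells (0.083). The macrophage factor Csf1 fell by 1.75. All 8 IGF axis genes tested fell (median -3.34), as did all 5 that could be tested without the Cxcl12 cells (median -2.18).

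Secretory and metabolic lists depended on the scale. Of 33 secretory genes 18 rose and 5 fell with TMM factors, 17 and 0 without the Cxcl12 cells, but 10 rose and 11 fell on the CPM scale. The KDEL receptor genes Kdelr3 and Kdelr2, which return chaperones to the endoplasmic reticulum, were called higher on both scales (1.95 and 1.24 with TMM factors), and the chaperone gene Hspa5 lower on both (-0.58), though not without the Cxcl12 cells (-0.09). For amino acid supply 5 rose and 2 fell of 14 (5 and 4 on the CPM scale), with Pycr1 and Psat1, which make proline and serine, up by 3.21 and 2.49. Of 21 oxidative phosphorylation genes 9 rose with TMM factors, against 0 up and 1 down on the CPM scale. Glycolysis gave 1 up and 6 down of 16 (0 and 8 on the CPM scale), and cell division 0 of 15 either way (0 and 5 on the CPM scale).

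Immediate early and heat shock genes gave 2 increases and 8 decreases of 17, the interferon response 1 and 13 of 19, and antigen presentation 0 and 11 of 12 (0 and 11, 1 and 16, and 0 and 12 on the CPM scale). Without the Cxcl12 cells these counts were 0 and 4 of 17, 1 and 1 of 13, and 0 and 2 of 12. Of 18 proteases and inhibitors 3 rose and 6 fell (3 and 10 of 17 without the Cxcl12 cells, 3 and 11 on the CPM scale). Mmp16 and Mmp2, a membrane-bound and a secreted matrix metalloproteinase, rose by 2.74 and 1.57, and Mmp9 fell by 4.19. Junction and mechanosensing genes split 6 to 4 of 14, on the CPM scale 3 to 5, and cell cycle arrest genes 1 to 3 of 12, on the CPM scale 0 to 6.

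Carbonic anhydrase 3, Car3, is known from muscle and fat. It stood at 2747, 2377, 2393, 2321 and 3488 CPM in the osteocalcin cells of aged-injury, aged, exhausted, naive and control, against 292, 266, 269, 341 and 768 in the Alpl cells, and rose by 3.25 (SE 0.17, edgeR adjusted p = 1.9e-10). It had at least 1 UMI in 537 of 567, 35 of 42, 29 of 34, 32 of 34 and 49 of 53 cells. It formed nearly all of the adipocyte list's sum, in which Plin4 and Pck1 were at 0 in every library. The gene was singled out after its values had been seen.

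The osteocalcin cells were not 1 state. At a minimum of 500 Col1a1 UMIs per 10000, set after the data had been seen, 487 of the 567 cells were collagen-high in aged-injury (85.9%), 19 of 42 in aged (45.2%), 21 of 34 in exhausted (61.8%), 25 of 34 in naive (73.5%) and 21 of 53 in control (39.6%). Among the other Ptprc-free cells only 3.14%, 0.242%, 1.33%, 1.61% and 0.175% were. The collagen-high cells were also the deeper ones, with medians of 22329, 10441, 10248, 13102 and 12718 UMIs, against 8913, 4919, 3824, 4470 and 6677 in the collagen-low cells.

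Osteopontin, Spp1, was summed in the same way. It stood at 780 CPM in the collagen-high cells of aged-injury, 747 in aged, 654 in exhausted, 738 in naive and 1137 in control, against 11202, 20348, 21041, 13946 and 13716 in the collagen-low cells. Every collagen-low sum lay above every collagen-high one, but few cells carried them: 1 cell gave 50.9% of the Spp1 UMIs of the osteocalcin cells in naive and 43.9% in exhausted, where the median cell had 0. Dmp1 went the same way, at 417, 464, 400, 90.4 and 734 CPM in the collagen-high and 1911, 2046, 3788, 315 and 2138 in the collagen-low cells, and so did Runx2, at 492, 1043, 736, 679 and 546 against 1115, 2301, 1982, 1540 and 1095. Mmp13, collagenase 3, stood at 480, 676, 1516, 134 and 48.5 against 4386, 12024, 1317, 3644 and 3842, so it was lower in collagen-high cells in 4 of 5 libraries. In exhausted 1 cell gave 75.3% of the Mmp13 UMIs. Sp7 overlapped between them (316, 256, 306, 381 and 261 against 237, 222, 367, 364 and 292). The split used Col1a1 as a share of the same UMI total that scales CPM. Col1a1 alone took 126330 (aged) to 180270 CPM (naive) of the collagen-high cells, which lowers the CPM of other genes there. The part of this scale in the contrasts was not tested.

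**Figure D4:**
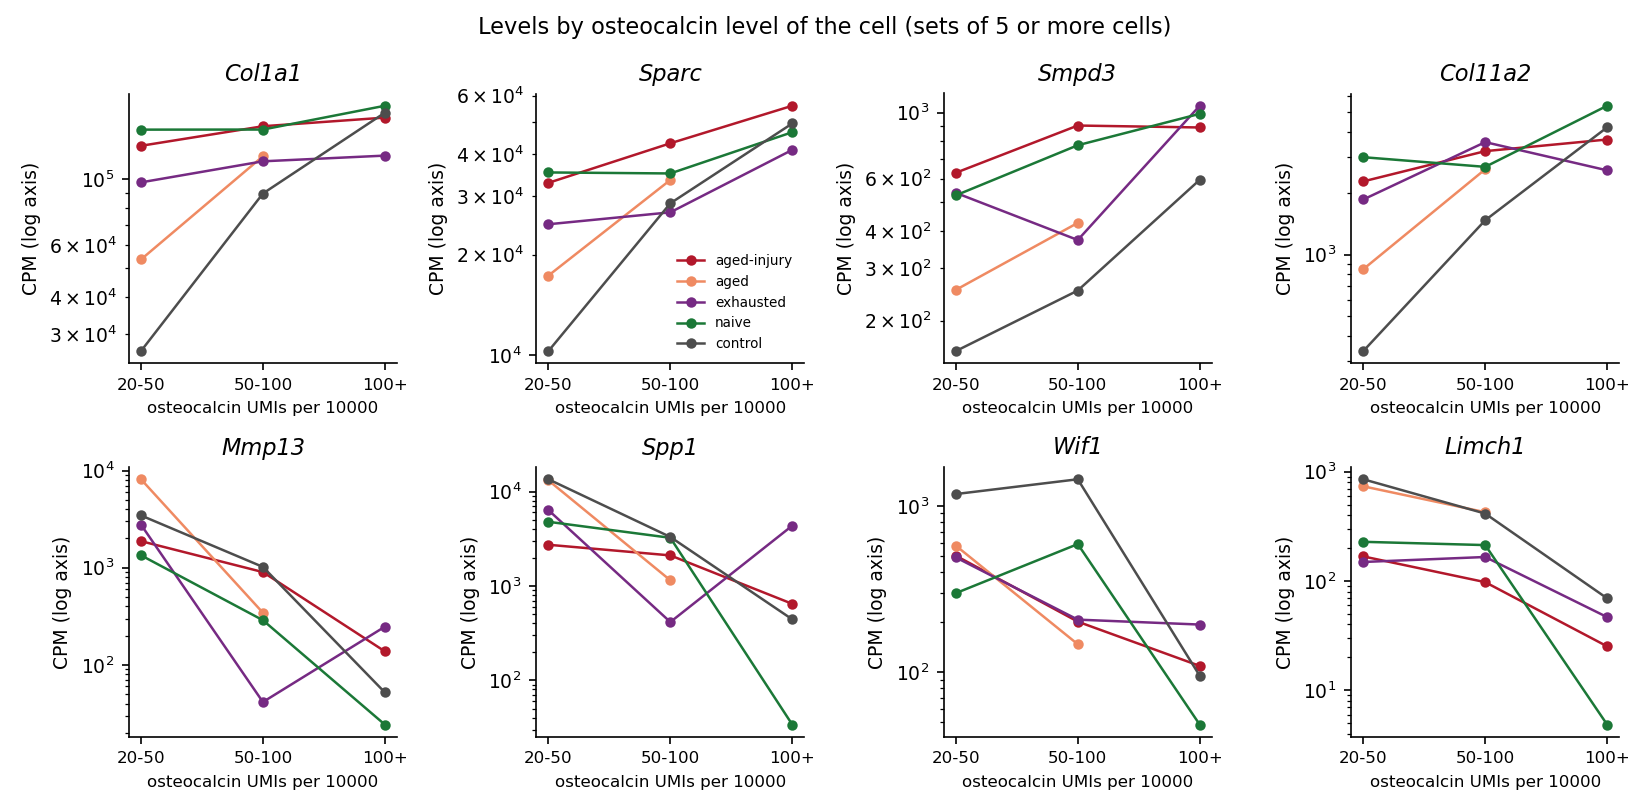
Levels in CPM on a log axis in cells of 20 to 50, 50 to 100 and at least 100 osteocalcin UMIs per 10000, with 1 line per library and sets of 5 or more cells. Mmp13 in aged-injury declines over the 3 ranges at 1877, 902 and 138 CPM, and Col1a1 in control climbs at 26324, 89471 and 167560 CPM.

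The same contrast appeared along the osteocalcin level itself. Mmp13 stood at 1877, 902 and 138 CPM in aged-injury cells of 20 to 50, 50 to 100 and at least 100 osteocalcin UMIs per 10000, and at 3454, 1019 and 52.1 in control. Col1a1 stood at 129610, 150860 and 161320 CPM in aged-injury and at 26324, 89471 and 167560 in control. The collagen gradient was thus steep in control and shallow in aged-injury, where even the lowest range was collagen-rich. Car3 climbed over the 3 ranges in aged-injury (1740, 2573 and 3286), exhausted (1469, 1948 and 3499), naive (728, 3046 and 3464) and control (2570, 3552 and 4469). Spp1 in exhausted did not follow one direction (6353, 414 and 4346 CPM).

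A smaller subset carried much Dmp1. At a minimum of 20 Dmp1 UMIs per 10000, also set afterwards, it held 43 cells in aged-injury, 9 in aged, 5 in exhausted, 1 in naive and 9 in control. Spp1 in these cells was 7799, 27454, 28889, 8177 and 16664 CPM, against 1001, 4269, 622, 2376 and 3519 in the osteocalcin cells with less Dmp1. Ptprz1 was 627, 611, 1028, 1226 and 645 against 158, 359, 149, 200 and 405, and Phex 877, 335, 729, 613 and 366 against 367, 258, 288, 250 and 199. Sost stood at 6.23 CPM in these cells of aged-injury, and with so few cells the values outside aged-injury rest on single cells.

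Another subset expressed Col2a1, the cartilage collagen. It reached 20 UMIs per 10000 in 117 cells of aged-injury, 14 of aged, 2 of exhausted, 8 of naive and 4 of control. Among other cartilage genes in these cells, Acan, the aggrecan gene, stood at 2.14 CPM in aged-injury and had no UMI in the other 4 libraries, Col9a1 stood at 3.57, 6.39, 0, 0 and 0 CPM and Sox9 at 9.98, 6.39, 0, 62.9 and 0. Their Col1a1 was 158690, 103700, 137420, 132990 and 85629 CPM, against 148630, 68717, 103490, 166970 and 93761 in the remaining osteocalcin cells. Col2a1 over all osteocalcin cells was 1630, 2380, 1216, 1075 and 522 CPM.

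**Figure D5:**
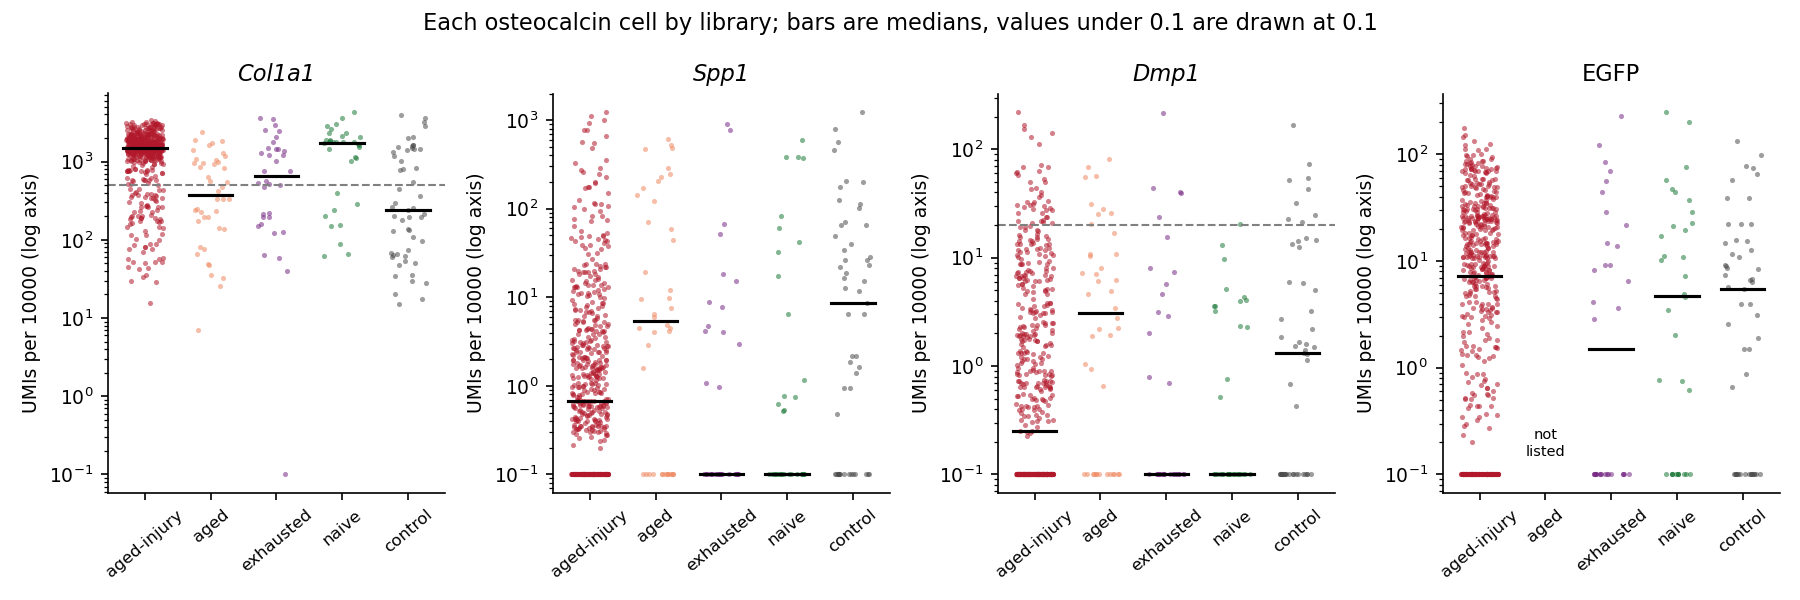
Each point is 1 osteocalcin cell, in UMIs per 10000 on a log axis, by library, with bars at the medians, values under 0.1 drawn at 0.1, and dashed lines at 500 for Col1a1 and 20 for Dmp1. Cells spread widely in Spp1 and Dmp1 within each library, and EGFP is not listed in aged.

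EGFP, a transgene that the labels do not mention, was far higher in the osteocalcin cells than in the other sets. It stood at 2299 CPM in the osteocalcin cells of aged-injury, 2027 in exhausted, 2694 in naive and 2532 in control, against 137, 10.6, 23.5 and 40.7 in the Alpl cells and 3.23, 0.285, 0.659 and 0.990 in reticular cells. It is not listed in the aged library. Aged thus differs in this transgene or its detection from aged-injury and control, with which it is compared below, and the part of this was not tested. It had a UMI in 408 of 567 osteocalcin cells (72.0%), 17 of 34 (50%), 23 of 34 (67.6%) and 36 of 53 (67.9%), against 3.85%, 0.511%, 1.99% and 1.06% of the other Ptprc-free cells. Such shares move with depth, and the osteocalcin cells with an EGFP UMI had medians of 22082, 7226, 13102 and 9026 UMIs, against 13708, 4213, 6092 and 6149 in those without. tdTomato, the sorted label, stood at only 60.8, 98.7, 43.9, 74.5 and 66.9 CPM in the osteocalcin cells of aged-injury, aged, exhausted, naive and control, and had a UMI in 298 of 567, 20 of 42, 11 of 34, 17 of 34 and 24 of 53 of them.

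The groups were then compared within the osteocalcin cells. With 1 library per group there is no test, and a ratio of summed CPM has an exact conditional binomial interval for counting error. A gene counted as measured with at least 50 CPM and 30 UMIs in the higher library, in at least 10 of its cells, so it enters through the library where it is high. The comparisons with control share that library, and 34 to 53 cells stand behind each group but aged-injury.

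Aged-injury and aged differed in the mix of osteocalcin cells, 85.9% against 45.2% collagen-high, and the ratios below hold that mix unless collagen-high cells are named. Of 2471 genes measured, 172 were at least 2-fold higher in aged-injury than in aged (6.96%) and 405 at least 2-fold lower (16.4%). Of 14 collagen chains 4 were at least 2-fold higher and 0 lower (median log2 ratio 0.78), of 31 secretory genes 8 and 0 (0.52), and of 20 collagen processing genes 6 and 1 (0.74). Of 14 receptors 0 were higher and 9 lower (-1.41), and of 14 proteases 0 and 6. Col1a1 was 1.81-fold higher over all osteocalcin cells and 1.27-fold in collagen-high cells, and Ifitm5 1.43-fold and 1.15-fold (0.850 to 1.59).

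Cthrc1 was the best-counted of the large increases. It stood at 608 CPM in aged-injury, in 407 of 567 cells, against 26.7 in aged, in 6 of 42 (22.8-fold, interval 12.4 to 47.5; 18.2-fold in collagen-high cells). Col3a1, the type III collagen of early repair tissue, stood at 420 against 8.004 CPM, from only 3 UMIs in aged (52.4-fold, 17.9 to 254). Slc13a5 was 7.81-fold higher (4.56 to 14.7), the polyamine oxidase gene Smox 10.2-fold (3.96 to 37.4) and Gpx7, a peroxidase of the secretory pathway, 7.32-fold (3.13 to 22.6). Aldh1l2, a mitochondrial folate enzyme, had 1036 UMIs against 0 in aged. At a floor of 3 counts it was 11.04-fold higher (lower end of the interval 8.96), and Cd109 8.09-fold (lower end 6.56). Hspa1b, an inducible chaperone, was 14.7-fold higher (6.75 to 40.1), Mamdc2 15.1-fold (4.16 to 124) and Ndrg4 20.04-fold from 1 UMI in aged (3.58 to 793).

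The decreases were set beside their values in collagen-high cells, of which aged had 19. Mmp13 stood at 737 CPM in aged-injury and 5176 in aged (ratio 0.143, 0.136 to 0.150), but in collagen-high cells at 480 and 676 (0.710), and 35.7% of its UMIs in aged came from 1 cell. Spp1 stood at 1466 and 8518 CPM (0.172), but at 780 and 747 in collagen-high cells (1.04, 0.896 to 1.22). Pde7b, a cyclic AMP phosphodiesterase, was 0.144 in all cells and 0.144 in collagen-high cells, Naaladl2 0.129 and 0.168, and Limch1, an actomyosin regulator, 0.128 and 0.166. Dlg2, Abca8a, Angpt4 and Col25a1 had ratios of 0.136 to 0.158, and of 0.112 to 0.277 in collagen-high cells, where Abca8a had 0.277.

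After 1 ablation in young mice the median log2 ratio of all genes measured was -0.32, on a scale where collagen, Sparc and osteocalcin took 31.7% of UMIs in naive and 19.99% in control. More genes can enter through control, which had 53 cells against 34 in naive. Of 2822 genes, 68 were at least 2-fold higher in naive than in control (2.41%) and 422 at least 2-fold lower (15.0%). Naive and control also differed in mix, 73.5% against 39.6% collagen-high, and the ratios hold that mix. Col1a1 was 1.72-fold higher over all osteocalcin cells and 1.17-fold in collagen-high cells. Over all osteocalcin cells, collagen chains were higher in 4 of 14 and lower in 0 (median 0.81), while 13 of 14 immediate early and heat shock genes were lower (median -1.76). That list summed to 4342 CPM in the osteocalcin cells of naive, against 10880 in aged-injury, 12742 in aged, 17254 in exhausted and 14448 in control. In the Alpl cells naive was not the lowest: the sums were 20832, 27590, 27684, 20999 and 23503 CPM in aged-injury, aged, exhausted, naive and control. Such genes can be induced while a tissue is dissociated, and the part of handling was not tested.

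The naive increases leaned on few cells. Col3a1 was 13.0-fold higher (10.2 to 16.8), at 1559 CPM in naive and 120 in control, but 1 cell gave 72.0% of its UMIs and the ratio was 3.81 without it. For Loxl2, a collagen crosslinker, 5.18-fold became 2.32, for the integrin ligand Npnt 4.52 became 2.05, for Prss35 3.67 became 2.09 and for Cmya5 7.03 became 4.28. Cdo1, cysteine dioxygenase, kept 3.48 of 3.77-fold, and the fibril collagen Col24a1 2.58 of 3.80. Rnf144b, Mosmo and Col15a1 had 3.72, 3.498 and 3.495-fold, and 2.69, 2.73 and 2.72 without their highest cell. At an osteocalcin minimum of 50 Col3a1, Npnt and Col15a1 had 1.86, 1.69 and 1.97, and in collagen-high cells Mosmo had 1.88 (0.679 to 5.97).

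Of the 8 named decreases, that of Dmp1 had the most counts. It had 119 CPM in naive (counting interval 90.1 to 155) and 1343 in control (1251 to 1441), a ratio of 0.0888 (0.0664 to 0.116), and 0.123 in collagen-high cells. Socs3, a cytokine feedback inhibitor, had a ratio of 0.0948, the BMP antagonist Grem1 0.0296, the protease gene Adamts1 0.0318, the growth arrest gene Gadd45a 0.0355, Egr2 0.0443 (0.0723 without the highest control cell, as Grem1 then had 0.0507) and Angptl4 0.0709. Hmox1, haem oxygenase, was at 0 UMIs in naive against 47 in control, 66.0% of them from 1 cell. Its ratio was 0.0792 at a floor of 3 counts, and its counting interval ran from 0 to 0.101.

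The share of genes at least 2-fold lower than control was smaller in exhausted than in naive. The share at least 2-fold higher was similar. Of 2491 genes, 61 were at least 2-fold higher in exhausted (2.45%) and 159 at least 2-fold lower (6.38%). Of 12 collagen chains 0 passed either limit (median log2 ratio 0.19, against -0.12 over all genes), a count near those shares. Exhausted and control differed in mix, 61.8% against 39.6% collagen-high, and the ratios hold that mix unless collagen-high cells are named. More genes can enter through control, with 582898 UMIs against 341377. Col1a1 was 1.17-fold higher over all osteocalcin cells and 0.871-fold in collagen-high cells. The haemoglobin genes Hba-a1, Hbb-bs and Hba-a2 were 7.08, 6.05 and 5.06-fold higher, but 1 exhausted cell gave 94.9%, 93.8% and 93.5% of their UMIs, and without it the ratios were 0.410, 0.422 and 0.371. The stress factor Atf3 was 4.07-fold higher (3.11 to 5.38; 3.20 without its highest cell) and the tubulin gene Tuba1a 3.89-fold (3.14). Tent5c, Dennd5b, Utp3 and Sec23ip had 4.83, 3.26, 3.13 and 3.11-fold, and without the highest cell Tent5c had 2.36 and Dennd5b 1.39. In collagen-high cells Atf3 was 17.2-fold (9.38 to 35.3) and Tent5c 12.3-fold higher (5.34 to 34.9), on only 11 and 6 UMIs in control. Of the Tent5c UMIs of all exhausted osteocalcin cells, 56.9% came from 1 cell.

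Among the 8 named genes lower in exhausted than in control, Cxcl12 stood at 152 CPM in exhausted and 993 in control (0.153, 0.113 to 0.204; 0.234 without the Cxcl12-rich osteocalcin cells), and the related chemokine gene Cxcl14 at 49.8 and 537 (0.0927). Spon1, a matrix protein, had a ratio of 0.0697, Gas6, a ligand of TAM receptors, 0.127, the retinoid enzyme gene Dhrs3 0.139 and Lonp2 0.114. Hmox1 had 0.0727, with 66.0% of its control UMIs from 1 cell and 0.206 without it, and Gas6 had 0.435 in collagen-high cells. Sox9, the cartilage factor, had 0.0640, from 3 UMIs in exhausted and 80 in control, of which 1 cell gave 50% (0.127 without it). In exhausted 0 of 34 osteocalcin cells reached 20 Cxcl12 UMIs per 10000, against 6 of 53 in control.

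Between the ablation schedules, the osteocalcin cells of exhausted held more immediate early RNA than those of naive, the library with the lowest sum of that list. Of 1973 genes, 189 were at least 2-fold higher in exhausted than in naive (9.58%) and 48 at least 2-fold lower (2.43%), and 14 of 14 measured immediate early and heat shock genes were higher (median 2.06), against 1 of 15 for exhausted over control. The part of handling was not tested here either. Fos stood at 2683 CPM in exhausted and 756 in naive. Atf3 was 8.82-fold higher (5.94 to 13.5), Cebpd 7.37-fold (5.395 to 10.3), the phosphatase gene Dusp1 7.80-fold (4.47 to 14.5), Phlda1 7.51-fold and the signalling inhibitor Spry4 9.91-fold. Dmp1 was 9.48-fold higher (7.15 to 12.8), with 46.4% of its exhausted UMIs from 1 cell and 5.21-fold without it. Hba-a1, Hba-a2 and Hbb-bs were 49.3, 48.6 and 25.2-fold higher, and 2.85, 3.56 and 1.76-fold without the 1 cell with most of their UMIs. Tent5c was 8.13-fold higher, and 3.97-fold without its highest cell. The named decreases were Tbc1d8b (0.153), Atxn1 (0.260), Bicral (0.275), Igfbp7 (0.336), Kmt2d (0.344), Cmya5 (0.351), Dtna (0.361) and Ddit4 (0.366), on 4 to 25 UMIs each in exhausted. Without the highest naive cell Igfbp7 and Cmya5 had 0.570 and 0.576.

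Between aged and control, both without injury, few genes differed 2-fold in either direction. Of 2626 genes, 121 were at least 2-fold higher in aged than in control (4.61%) and 100 at least 2-fold lower (3.81%). Col1a1 stood at 83332 and 92898 CPM (ratio 0.897), and collagen chains had a median log2 ratio of 0.08. Of the 10 named increases, that of Col2a1 had the most counts, at 2380 CPM in aged and 522 in control (4.56-fold, 4.002 to 5.21; 3.91 without its highest cell and 8.24 in collagen-high cells). Pde7b was 3.84-fold higher (2.85 to 5.22), and Naaladl2 3.87-fold (3.04 to 4.97). Outside the named genes, Mmp13 was 3.05-fold higher, with 35.7% of its UMIs in aged from 1 cell (2.06 without it).

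Other aged increases had fewer counts or leaned on 1 cell. Fst, follistatin, was 9.95-fold higher (3.85 to 32.7), 6.18-fold without its highest cell and 1.94-fold in collagen-high cells (0.329 to 13.3). Aldh1a2, a retinoic acid enzyme, was 6.84-fold higher, 3.41-fold without its highest cell and 1.28-fold without the Cxcl12-rich osteocalcin cells. Lpl, lipoprotein lipase, was 4.04-fold higher, but 75.2% of its UMIs came from 1 cell and it was 1.05-fold without it and 0.498 without the Cxcl12-rich cells. Adipoq was 3.89-fold higher, and 1.86-fold and 1.04-fold in the same alternatives. Lrmda, Gpc6 and Fbxl7 had 4.47, 4.15 and 3.85-fold, and Lrmda 1.03-fold at an osteocalcin minimum of 50. Lower in aged were Sox9 (0.0389), the neutrophil genes S100a8 and S100a9 (0.114 and 0.136), Hba-a1, Hba-a2 and Hbb-bt (0.149, 0.158 and 0.160), Usp5 (0.130) and D16Ertd472e (0.173). In control 1 cell gave 63.7%, 65.9% and 61.8% of the UMIs of Hba-a1, Hba-a2 and Hbb-bt, and without it their ratios were 0.401, 0.454 and 0.410, while 1 cell gave 50% of those of Sox9 (0.0769 without it). The neutrophil list summed to 34.7 CPM in the osteocalcin cells of aged and 269 in control, and to 62.2 and 291 in the Alpl cells.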

How the data were processed

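Single cells sorted as tdTomato-positive from femur marrow were sequenced as 5 libraries, 1 per group, by BD Rhapsody. The deposited matrices hold raw UMI counts per gene and cell, which the authors had not normalised; Seurat 5.1 and GRCm39 are named per the submitters' processing notes. For the aligner, counting tool, cell calling, batch and number of mice, the entry is: not given in the sources used here. All 30099 gene symbols were joined over the libraries by name, and a gene that a library does not list was counted as 0 in sums. The members and the gene lists (22 lists, 392 genes, 390 of them in the files) were chosen with earlier results of these data known.

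Counts were summed over cells and divided by the UMIs of the set to give CPM. Osteocalcin cells and Alpl cells were compared over 5 pairs of sums with edgeR 4.0.16 (R 4.3.3; TMM factors, low-count filter, library block, Benjamini-Hochberg adjustment). Bglap, Bglap2, Ptprc and Alpl, which chose the cells, got no call. The script was tested on simulated data. The paired sums come from the same library, and this is the pairing used. Groups have 1 library, so library pairs have ratios with exact conditional binomial intervals and no p-value. Named were the markers, list members by their UMIs and change, the 12 largest and 8 lowest called log2 fold changes with at least 50 CPM and 1 direction in 5 libraries, and the 10 largest and 8 lowest ratios of each library pair. Other genes named (Car3, Fos) were chosen after their values had been seen. Doublets were not called; leaving out cells above 2 times the median UMI count of their library was an alternative. Summed UMIs of the osteocalcin cells were 341377 to 11730184 per library, so that counts are most precise in aged-injury. Some genes that these rules name are not reported here.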

Additional observations from a re-analysis of the deposited data

Results flagged for a closer look

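EGFP, a jellyfish fluorescent protein used as a transgene, is outside the labelled genotype, and its UMIs stood above the counting limit in the osteocalcin cells. It was called higher than in the Alpl cells, but its edgeR adjusted p was 0.078 without control and 0.073 without naive. Its level was 2299 CPM in aged-injury (counting interval 2272 to 2327), 2027 in exhausted (1879 to 2184), 2694 in naive (2547 to 2846) and 2532 in control (2405 to 2665). The aged library does not list it. Where the sequence comes from was not tested.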

How the results depend on the processing

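Each result was recomputed with 1 choice changed at a time, some of them chosen after seeing the data: no normalisation factors, collagen-high cells alone, and leaving out the cell with most UMIs of a gene. With an osteocalcin minimum of 10 per 10000 the shares of cells were 4.04% in aged-injury, 1.33% in aged, 1.63% in exhausted, 1.30% in naive and 1.27% in control, and with 50 they were 1.95%, 0.170%, 0.562%, 0.495% and 0.320%. With a mitochondrial limit of 10% they were 2.40% in aged-injury, 0.334% in aged and 0.422% in control, and without cells above 2 times the median UMI count 1.63% in aged-injury. Aged-injury had the highest share under each of these.

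The edgeR counts were 757 higher and 778 lower without Cxcl12-rich cells and 636 and 3646 without normalisation factors; without the replicate block they were 1342 and 1772, and with DESeq2 1295 and 1659. Leaving out each library gave 996 to 1240 higher and 1227 to 1957 lower. Under the fit without the block, Cthrc1 (adjusted p = 0.063), Col9a2 (0.117), Mgp (0.065) and Ibsp (0.172) missed the threshold in edgeR. Reversed were Ibsp without Cxcl12-rich cells (-0.26), the log2 ratio of Mmp13 in aged-injury over aged at a minimum of 50 (0.036), that of Lpl in aged over control without Cxcl12-rich osteocalcin cells (-1.01), and those of Hba-a1, Hbb-bs and Hba-a2 in exhausted over control without 1 cell (-1.29, -1.24 and -1.43). For Mmp13 and Lpl the cause was not tested. With 34 to 53 cells in 4 of 5 libraries, rare transcripts and small subsets are limited by counts.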
